A study of Mus musculus with 22 samples.

Results

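Cdc14b, Zfp292, Mdfic, Nicn1, Zfp420, Fnta, Zfand5, Cdk17 and Zc4h2 are 9 of the 21793 protein-coding genes counted in sorted lung epithelial cells (ECs), and were chosen by their levels, higher in libraries labelled AhR-/- than in WT libraries after house dust mite (HDM) exposure. Calls, ranks and intervals from that comparison follow from this choice and are given as a description only. All 9 symbols matched 1 gene each in both deposited count tables, and all 9 passed the filter on low counts at steady state and after HDM. Seen against steady state, most of the 9 genes were not raised in the AhR-labelled libraries. Of the 9, 8 were at lower counts per mio (CPM) in every WT HDM library than in every steady-state WT library, as were 21.2% of all genes tested. In AhR-labelled ECs 2 of the 9 (Zfp292 and Cdk17) were higher in every HDM library than in every steady-state library (12.7% of all genes), 1 (Cdc14b) was lower in every one (23.2%), and 6 overlapped. The choice used these HDM libraries and so favoured low WT and high AhR-labelled levels. These counts against steady state are therefore a description as well.

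ECs were sorted as live EpCAM+ single cells lacking CD45, and by the study's text also CD31, from the lungs of C57BL/6 wildtype mice and of mice with a germline deletion of Ahr or Cyp1b1, both backcrossed to C57BL/6, aged over 7 weeks and of both sexes. Steady state comprised naive mice (4 WT, 3 AhR-/- and 3 CYP1B1-/- libraries). HDM comprised 4 libraries per genotype from mice given 1 intranasal HDM sensitization and, after 8 days, challenges on 4 consecutive days, with cells collected 72 h after the last instillation. Both deletions are present in all cells of the animal, so a difference between genotypes in ECs may also come from loss in other cells. The sources used here do not say whether each library is a separate mouse, and p-values measure the spread between libraries. The naive and the HDM libraries were deposited as separate sequencing runs, so state and run cannot be told apart. By the Y-linked sums given below, state and sex cannot be told apart either in WT and CYP1B1-labelled libraries.

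AhR, the aryl hydrocarbon receptor, enters the nucleus when a ligand binds it, pairs with ARNT and binds DNA at sites with the core letters GCGTG, and it induces CYP1 enzymes such as CYP1B1, which in turn degrade AhR ligands. The 9 genes do not form a known pathway. Their products include a phosphatase, a kinase, enzyme subunits that modify other proteins, and several zinc finger proteins.

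Across the series, total counts ran from 9654825 to 17878442 per library. Gm10800, a predicted gene, took 9.54 to 29.2% of the counts at steady state and 0.00819 to 71.9% after HDM, so that effective library sizes ran from 14104500 to 21730600 at steady state and from 2197980 to 27910000 after HDM. The smallest count of any of the 9 genes was 54 at steady state (Zc4h2) and 8 after HDM (Zc4h2). Ahr was at 15.5 to 20.1 CPM in AhR-labelled and 6.38 to 12.3 CPM in WT libraries at steady state, and Cyp1b1 was at 3.62 to 5.89 CPM in CYP1B1-labelled and 0.644 to 1.91 CPM in WT libraries. Neither targeted gene was lower in the libraries labelled with its deletion, and since reads were summed over all exons the counts do not check these labels. Epcam was at 68.2 to 312 CPM in all 22 libraries. Ptprc, which encodes the CD45 used to exclude leukocytes in the sort, was at 2.02 to 52.6 CPM at steady state, and after HDM at 209 to 637 CPM in WT, 14.8 to 161 CPM in AhR-labelled and 26.2 to 669 CPM in CYP1B1-labelled libraries. Ptprc was above Epcam in every WT HDM library and in CYP1B1-labelled HDM replicates 1, 3 and 4. In this text ECs therefore names the sorted libraries, which also held Ptprc transcripts. Pecam1, which encodes the endothelial protein CD31, was at 0.507 to 21.2 CPM. Y-linked genes summed to 66.6 to 250 CPM in the 10 steady-state libraries and to 172 and 191 CPM in AhR-labelled HDM replicates 3 and 4, and to at most 0.26 CPM in the other HDM libraries. Judged by these sums, sex goes with state in WT and CYP1B1-labelled libraries. AhR-labelled HDM replicates 3 and 4 also differ in sex from the WT HDM libraries. In bulk libraries such as these, fewer cells of a type and less RNA per cell cannot be told apart.

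Because the deleted factor binds GCGTG, promoters of the 9 genes were read for these letters. RefSeq promoters (build GRCm38.p6, 250 bases before to 50 bases after the start) were found for 7 of the 9 genes, and Fnta and Cdk17 had no entry. GCGTG on either strand (CACGC on the printed one) was present in 4 of the 8 promoters of these 7 genes (Cdc14b has 2), against 32.4% of all 32851 promoters in the same table. The palindrome CACGTG, which shares no full match with GCGTG, was found in 1 of the 8, that of Zfp292, and in 7.15% of all promoters. The promoters with GCGTG are printed 5′ to 3′ on the gene's strand, with GCGTG or CACGC in capitals. They lie at chr13:64274939-64275238 (minus strand, Cdc14b), chr4:34882899-34883198 (minus strand, Zfp292), chr19:21272028-21272327 (plus strand, Zfand5) and chrX:95658460-95658759 (minus strand, Zc4h2).
Cdc14b: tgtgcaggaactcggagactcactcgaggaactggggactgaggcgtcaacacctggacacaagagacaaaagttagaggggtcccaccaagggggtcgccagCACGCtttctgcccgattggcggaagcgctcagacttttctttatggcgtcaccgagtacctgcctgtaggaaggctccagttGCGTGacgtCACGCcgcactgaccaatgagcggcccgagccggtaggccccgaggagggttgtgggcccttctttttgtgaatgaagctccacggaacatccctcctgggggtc
Zfp292: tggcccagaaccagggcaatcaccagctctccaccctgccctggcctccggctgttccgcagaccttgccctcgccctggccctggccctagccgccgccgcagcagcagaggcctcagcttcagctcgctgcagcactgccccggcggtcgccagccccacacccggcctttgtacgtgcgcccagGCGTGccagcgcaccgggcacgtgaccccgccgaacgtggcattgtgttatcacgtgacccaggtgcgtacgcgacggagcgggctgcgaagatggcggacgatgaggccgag
Zfand5: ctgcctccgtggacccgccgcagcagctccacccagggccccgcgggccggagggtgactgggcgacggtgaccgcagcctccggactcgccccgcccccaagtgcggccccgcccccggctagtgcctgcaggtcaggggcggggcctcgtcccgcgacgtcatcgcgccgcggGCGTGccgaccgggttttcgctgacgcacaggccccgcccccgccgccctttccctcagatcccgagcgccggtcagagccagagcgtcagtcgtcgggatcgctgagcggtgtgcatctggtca
Zc4h2: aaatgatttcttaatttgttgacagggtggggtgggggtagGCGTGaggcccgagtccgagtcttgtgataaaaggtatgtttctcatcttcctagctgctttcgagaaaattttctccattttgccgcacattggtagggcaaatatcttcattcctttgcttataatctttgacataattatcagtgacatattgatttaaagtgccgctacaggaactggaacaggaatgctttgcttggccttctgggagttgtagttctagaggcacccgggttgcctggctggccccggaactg
Cdc14b held 3 matches, at 147, 64 and 55 bases before its start, and a second Cdc14b promoter at chr13:64248489-64248788 held none. The matches of Zfp292, Zfand5 and Zc4h2 were 63, 75 and 209 bases before the start. Mdfic, Nicn1 and Zfp420 had no match in this window. A match is a description of the letters only.

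All levels that follow are CPM on TMM library sizes computed over the 22 libraries, so that both states share 1 scale. Fold changes within a state come from the fit of that state's libraries, and fold changes between states from a fit of all 22. Values are listed in the order of the replicate numbers, which are 1 to 4 except for AhR-labelled (1, 3, 4) and CYP1B1-labelled (2, 3, 4) libraries at steady state. Corrected for exon length, the mean level in WT at steady state was highest for Fnta and Zfand5 (16.0 and 12.3 CPM per kb), intermediate for Nicn1 and Zc4h2 (5.87 and 5.00) and 1.51 to 3.15 for the other 5 genes.

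**Figure D1:**
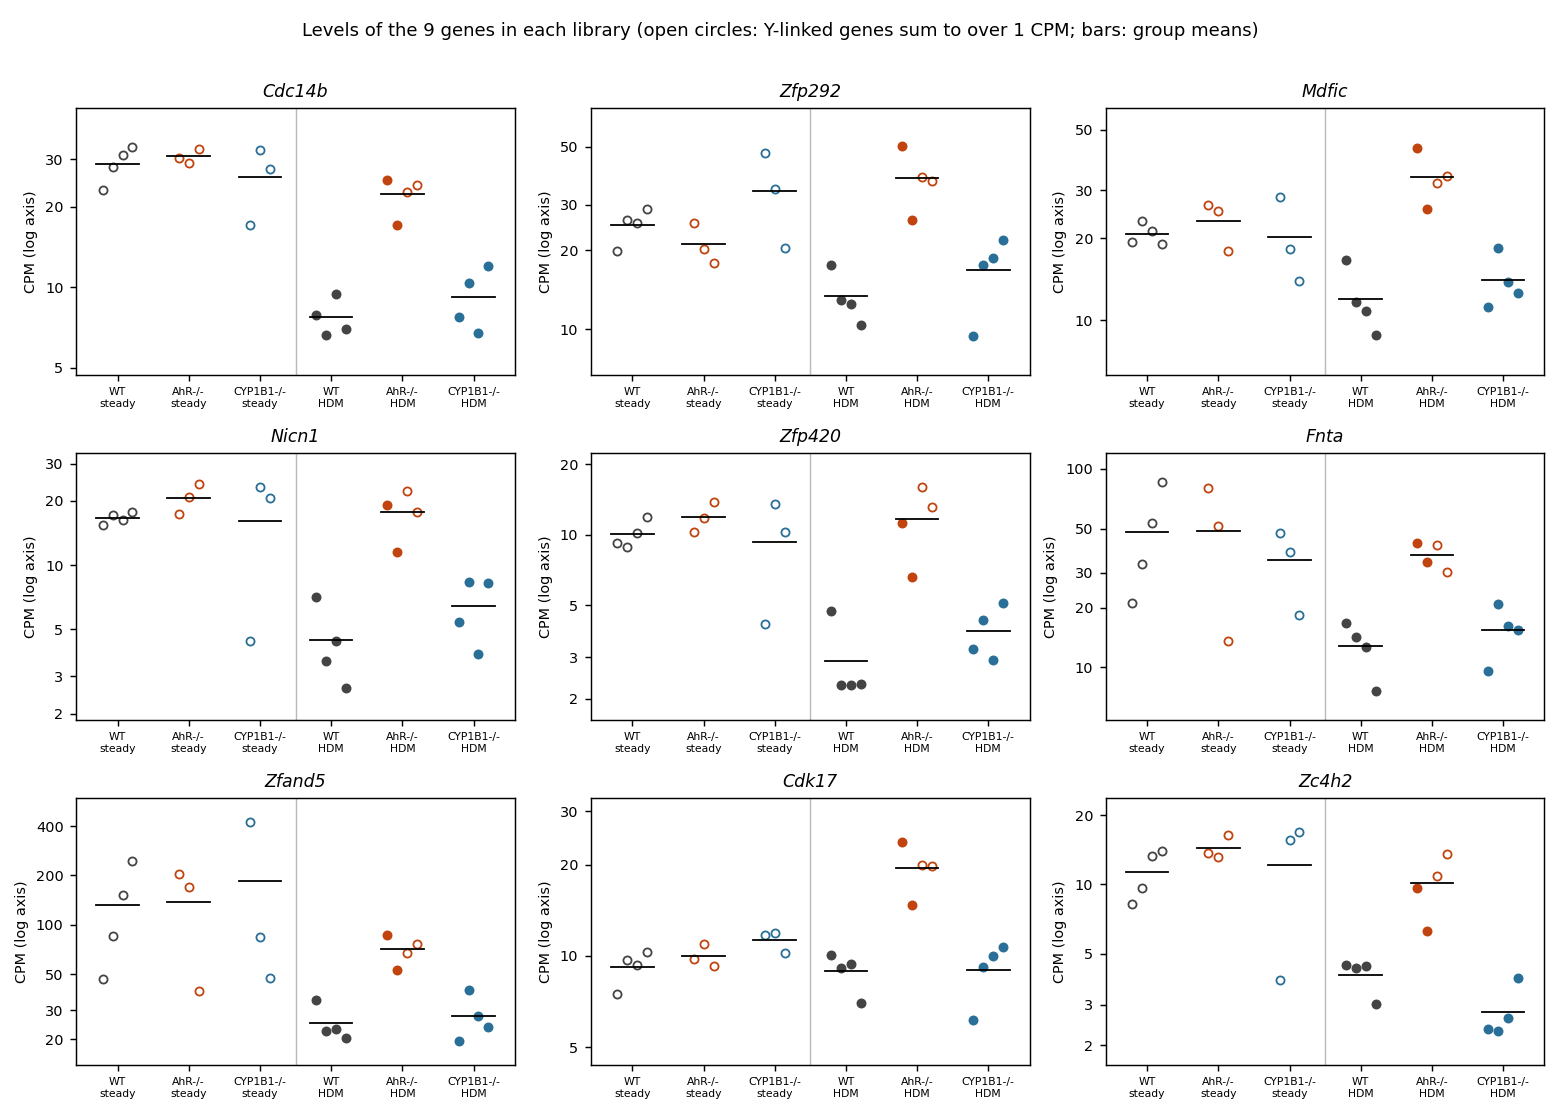
Level of each of the 9 genes (CPM, log axis) in each of the 22 libraries by genotype and state. Each circle is 1 library, open where Y-linked genes sum to over 1 CPM, and horizontal bars are group means; in all 9 panels the 4 AhR-labelled HDM libraries lie above the 4 WT ones, by which the genes were chosen (9.6% of all genes), and above the 4 CYP1B1-labelled ones (5.33%), and in 8 panels (not Cdk17) the 4 WT HDM libraries lie below the 4 WT steady-state libraries (21.2%). All of these comparisons share HDM libraries with the choice.

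Cdc14b (ENSMUSG00000033102, chromosome 13, 64189268 to 64275290, GRCm38) encodes a phosphatase that removes phosphates placed by cyclin-dependent kinases and acts in mitotic exit and the DNA damage checkpoint. At steady state it was at 23.1, 28.0, 31.2 and 33.4 CPM in WT, 30.4, 29.2 and 32.9 CPM in AhR-labelled and 17.1, 32.6 and 27.8 CPM in CYP1B1-labelled libraries. After HDM the WT libraries were at 7.85, 6.60, 9.44 and 6.99 CPM and the CYP1B1-labelled ones at 7.76, 10.4, 6.74 and 12.0 CPM, and the AhR-labelled ones were at 25.2, 17.1, 22.7 and 24.0 CPM. The AhR-labelled HDM libraries lay above all other HDM libraries and below the AhR-labelled steady-state ones, with means of 22.3 ± 3.59 CPM (SD, n = 4) and 30.8 ± 1.90 CPM (SD, n = 3). The log2 fold change in the contrast that chose the gene was 1.53. Its exons share 11 bases, 0.12% of their length, with Aaed1 on the same strand.

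Cdk17 (ENSMUSG00000020015, chromosome 10, 93160875 to 93267071) encodes a PCTAIRE kinase, a cyclin-dependent kinase relative that is activated by cyclin Y. It differed from the other 8 genes in that WT ECs had like levels in both states, 7.46, 9.69, 9.35 and 10.3 CPM at steady state and 10.1, 9.13, 9.44 and 6.99 CPM after HDM. In AhR-labelled libraries it was at 9.76, 11 and 9.23 CPM at steady state and at 23.7, 14.7, 20.0 and 19.8 CPM after HDM. The CYP1B1-labelled libraries were at 11.7, 11.9 and 10.2 CPM at steady state and 6.13, 9.22, 10.0 and 10.7 CPM after HDM, within or close to the WT range. The 4 AhR-labelled HDM libraries were above every other library of the 22. An exon stretch of 316 bases, 5.18% of the exons of Cdk17, overlaps Elk3 on the opposite strand, and whether the authors' counting used strand is not given in the sources used here.

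Zfp292 (ENSMUSG00000039967, chromosome 4, 34803113 to 34882960) encodes a large C2H2 zinc finger protein. WT libraries were at 19.9, 26.2, 25.5 and 28.8 CPM at steady state and at 17.6, 12.9, 12.5 and 10.3 CPM after HDM. AhR-labelled libraries went the other way, from 25.5, 20.3 and 18 CPM at steady state to 50.2, 26.2, 38.2 and 36.8 CPM after HDM. The difference between the AhR-labelled and WT HDM-minus-steady-state changes was 1.74 on the log2 scale (SE 0.43), the highest of the 9 genes, and since it uses the libraries by which the gene was chosen it was not tested. CYP1B1-labelled libraries were at 47.1, 34.3 and 20.4 CPM at steady state, the widest of the 3 genotypes, and at 9.38, 17.6, 18.7 and 21.8 CPM after HDM.

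Zfp420 (ENSMUSG00000058402, chromosome 7, 29859979 to 29877292) encodes a C2H2 zinc finger protein of the KRAB type, a class of DNA-binding repressors. Its steady-state values were 9.25, 8.83, 10.2 and 11.9 CPM in WT and 10.3, 11.8 and 13.8 CPM in AhR-labelled libraries. After HDM they were 4.75, 2.28, 2.28 and 2.31 CPM in WT and 11.3, 6.61, 15.9 and 13.1 CPM in AhR-labelled libraries. WT replicate 1 stood apart from 3 nearly equal WT libraries, and AhR-labelled replicate 2 was the lowest of its group. In CYP1B1-labelled libraries the gene was at 4.18, 13.6 and 10.3 CPM at steady state and 3.25, 4.32, 2.92 and 5.10 CPM after HDM. The smallest count was 9, in WT HDM replicate 2, so that the lowest levels rest on few reads.

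Zfand5 (ENSMUSG00000024750, chromosome 19, 21272278 to 21286840) encodes an AN1-type zinc finger protein that stimulates the proteasome. Among the 9 genes it was the most variable at steady state, at 47.0, 84.9, 153 and 245 CPM in WT, 204, 171 and 39.2 CPM in AhR-labelled and 423, 84.8 and 47.7 CPM in CYP1B1-labelled libraries. The SD of log2 CPM over the 10 steady-state libraries was 1.15, above that of 98.7% of 16639 genes. After HDM the spread was narrower, with 34.5, 22.6, 23.1 and 20.3 CPM in WT, 86.1, 52.9, 66.9 and 76.9 CPM in AhR-labelled and 19.7, 39.8, 27.8 and 23.9 CPM in CYP1B1-labelled libraries. All AhR-labelled HDM libraries lay within the range of the AhR-labelled steady-state ones.

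Zc4h2 (ENSMUSG00000035062, chromosome X, 95639193 to 95658509) encodes a zinc finger protein that binds and stabilizes the ubiquitin ligase RNF220 and is known from neural development. It was at 8.23, 9.63, 13.3 and 14 CPM in WT, 13.8, 13.2 and 16.4 CPM in AhR-labelled and 3.83, 15.7 and 17.0 CPM in CYP1B1-labelled libraries at steady state. WT and CYP1B1-labelled ECs after HDM were at 4.48, 4.31, 4.41 and 3.01 CPM and at 2.34, 2.31, 2.62 and 3.92 CPM, and AhR-labelled ECs at 9.67, 6.27, 10.9 and 13.6 CPM. Zc4h2 was the single gene of the 9 with a lower estimate in CYP1B1-labelled than in WT libraries after HDM, and those 2 groups overlapped. It is also the single X-linked gene of the 9, and AhR-labelled replicates 3 and 4, with high Y-linked sums, were the 2 highest HDM libraries.

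Nicn1 (ENSMUSG00000032606, chromosome 9, 108290429 to 108296498) encodes nicolin 1, a subunit of the complex that adds glutamate chains to tubulin. Levels at steady state were 15.4, 17.2, 16.3 and 17.7 CPM in WT, 17.3, 20.9 and 24.0 CPM in AhR-labelled and 4.4, 23.4 and 20.7 CPM in CYP1B1-labelled libraries. After HDM, WT libraries were at 7.09, 3.55, 4.41 and 2.63 CPM, CYP1B1-labelled ones at 5.41, 8.36, 3.82 and 8.20 CPM and AhR-labelled ones at 19.2, 11.5, 22.3 and 17.8 CPM. The AhR-labelled HDM libraries overlapped the steady-state levels of all 3 genotypes, and the fitted fold over WT HDM libraries was 4.05.

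Fnta (ENSMUSG00000015994, chromosome 8, 25998722 to 26015650) encodes the alpha subunit shared by the farnesyl and type I geranylgeranyl transferases, which attach lipid anchors to small GTPases and other proteins. Like Zfand5 it was spread widely at steady state, at 21.1, 33.1, 53.2 and 85.9 CPM in WT, 79.9, 51.7 and 13.5 CPM in AhR-labelled and 47.4, 38.2 and 18.4 CPM in CYP1B1-labelled libraries. After HDM it was at 16.6, 14.2, 12.6 and 7.63 CPM in WT, 42.2, 33.7, 41.4 and 30.4 CPM in AhR-labelled and 9.56, 20.7, 16.1 and 15.5 CPM in CYP1B1-labelled libraries. The lowest AhR-labelled HDM library was 1.83 times the highest WT one, the widest such gap among the 9 genes.

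Mdfic (ENSMUSG00000041390, chromosome 6, 15720661 to 15802169) encodes a MyoD family inhibitor domain protein, which binds transcription factors and is an auxiliary subunit of PIEZO channels. It was at 19.3, 23.1, 21.2 and 19.0 CPM in WT, 26.5, 25.1 and 18 CPM in AhR-labelled and 28.4, 18.3 and 13.9 CPM in CYP1B1-labelled libraries at steady state. HDM libraries were at 16.6, 11.7, 10.8 and 8.85 CPM in WT, 11.2, 18.4, 13.8 and 12.6 CPM in CYP1B1-labelled and 42.9, 25.5, 31.8 and 33.9 CPM in AhR-labelled ECs. Of the AhR-labelled HDM libraries, 3 exceeded every steady-state library of any genotype and the fourth, replicate 2, lay within their range.

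Taking the 9 genes side by side in the contrast that chose them, log2 fold changes of AhR-labelled over WT libraries after HDM ran from 1.13 (Cdk17) to 2.02 (Nicn1), with a median of 1.50 against -0.0017 over all genes. All 9 passed an adjusted p of 0.05 in that direction, as did 9.22% of the 14161 genes tested, and all 9 had libraries that did not overlap, as did 9.6% of genes. Both counts, and the ranks that follow, result from the choice of the genes. By p, Cdc14b and Zfp292 ranked 1 and 2 among the 7068 higher genes, Mdfic, Nicn1, Zfp420, Fnta and Zfand5 ranked 4 to 8, Cdk17 ranked 14 and Zc4h2 84. The lowest AhR-labelled library exceeded the highest WT library by 1.39 (Zfp420) to 1.83 times (Fnta).

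The calls in this contrast depended on single libraries. Without AhR-labelled replicate 1, 3 or 4 or WT replicate 3 or 4, none of the 9 genes and 0 of all genes passed the threshold as higher by edgeR's quasi-likelihood test, whereas the estimates of the 9 genes stayed positive in every such fit (1.05 to 2.25). With a hematopoietic marker score (the mean log2 CPM of the hematopoietic markers) as covariate the count was also 0 of 9, and the estimates were 0.85 to 1.54 with a median of 1.24. Without both AhR-labelled libraries with high Y-linked sums it was again 0 of 9, and the estimates were 0.94 to 1.77 with a median of 1.47. Over all 14161 genes, 5492 had an unadjusted p under 0.05 in the fit of all 12 HDM libraries.

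Marker lists of other cell types also differed between these libraries. The summed level of the 23 hematopoietic markers found (of 24 listed) was 907 and 1113 CPM in AhR-labelled HDM replicates 3 and 4 and 7264 and 9036 CPM in replicates 1 and 2, against 4040 to 9168 CPM in WT HDM libraries and 436 to 1754 CPM at steady state. AhR-labelled replicate 2, with the highest hematopoietic sum of its group, was the lowest AhR-labelled HDM library for 8 of the 9 genes. AhR-labelled replicate 1, with a sum within the WT range, was the highest for 6 of the 9. The 8 alveolar type 1 markers summed to 3669 CPM in AhR-labelled replicate 2 and 11005 to 22363 CPM in the other 3 AhR-labelled HDM libraries, 739 to 5240 CPM in WT and 518 to 4678 CPM in CYP1B1-labelled HDM libraries, and 16728 to 33384 CPM at steady state. The 8 general epithelial markers summed to 975 to 1142 CPM in AhR-labelled, 542 to 979 CPM in WT and 651 to 986 CPM in CYP1B1-labelled HDM libraries, and to 1558 to 2595 CPM at steady state. In the same order of HDM groups, the 8 mesenchymal markers summed to 52.3 to 81.0, 20.2 to 57.3 and 26.5 to 168 CPM, the 8 endothelial markers to 11.8 to 39.4, 24.0 to 32.9 and 23.1 to 35.0 CPM, and the 8 ciliated markers to 74.6 to 157, 75.6 to 130 and 90.2 to 138 CPM. Club markers (6 genes) were at 1734 to 7999 CPM in AhR-labelled, 206 to 1765 CPM in WT and 287 to 4915 CPM in CYP1B1-labelled HDM libraries, and alveolar type 2 markers (8 genes) at 7612 to 71974, 4378 to 24512 and 5843 to 38787 CPM. The CYP1B1-labelled and AhR-labelled HDM ranges overlapped in all of these lists. In the alveolar type 1 list the overlap came from AhR-labelled replicate 2 alone, and in the general epithelial list it lay between 975 and 986 CPM. In the hematopoietic list AhR-labelled replicates 3 and 4 were below all CYP1B1-labelled HDM libraries (4890 to 7497 CPM). None of these lists had a gene at 0 in all libraries of a group. The part of these cell types in the levels of the 9 genes was not tested.

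**Figure D2:**
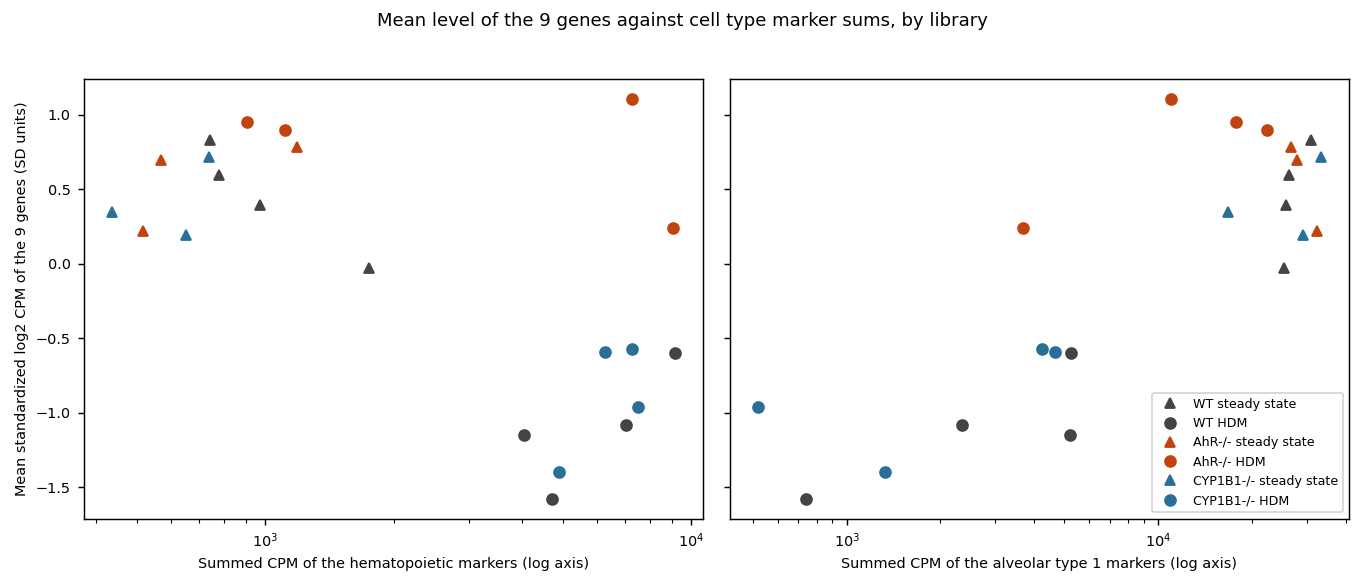
Mean of the standardized log2 CPM of the 9 genes (vertical axis, SD units) against the summed CPM of the hematopoietic markers (left) and of the alveolar type 1 markers (right, both log axes) in each library. Triangles are steady-state and circles HDM libraries; the AhR-labelled HDM libraries reach 0.24 to 1.11, in the range of or above the steady-state libraries (-0.027 to 0.83), and the WT and CYP1B1-labelled HDM libraries lie between -1.58 and -0.57.

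At steady state hardly any gene was called between genotypes, and the counts for the 9 genes were near the share of all genes. None of the 9 passed the threshold in AhR-labelled against WT libraries (0% of the 15547 genes tested did, 0 genes, and 263 had an unadjusted p under 0.05), and none of the 9 had an unadjusted p under 0.05. Log2 fold changes were -0.26 (Zfp292) to 0.34 (Zc4h2), with a median of 0.095 and 8 of 9 estimates above 0. The adjusted p was 0.99987 for all 9 by edgeR's quasi-likelihood test. The 95% intervals were narrowest for Cdk17 (-0.25 to 0.44) and Cdc14b (-0.35 to 0.49) and widest for Zfand5 (-1.53 to 1.71) and Fnta (-1.16 to 1.21). None of the 9 had libraries that were all higher in AhR-labelled than in WT ECs at steady state, as 2.1% of genes had.

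CYP1B1-labelled libraries gave the same count at steady state. Against WT, 0 of the 9 genes and 0.0129% of all genes (2) passed, and the 9 estimates ran from -0.51 (Fnta, 95% interval -1.71 to 0.69) to 0.48 (Zfand5, -1.13 to 2.09). AhR-labelled against CYP1B1-labelled libraries gave 0 of the 9 and 0.00643% of all genes (1). The lowest unadjusted p there was 0.039, for Zfp292 (log2 fold change -0.63, SE 0.27, adjusted p = 0.936 by edgeR's quasi-likelihood test). Without CYP1B1-labelled replicate 2, in which Nicn1, Zfp420 and Zc4h2 were at 4.4, 4.18 and 3.83 CPM and Zfand5 at 423 CPM, the estimates of Nicn1, Zfp420 and Zfand5 against WT changed sign, to 0.32, 0.16 and -1.05.

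**Figure D3:**
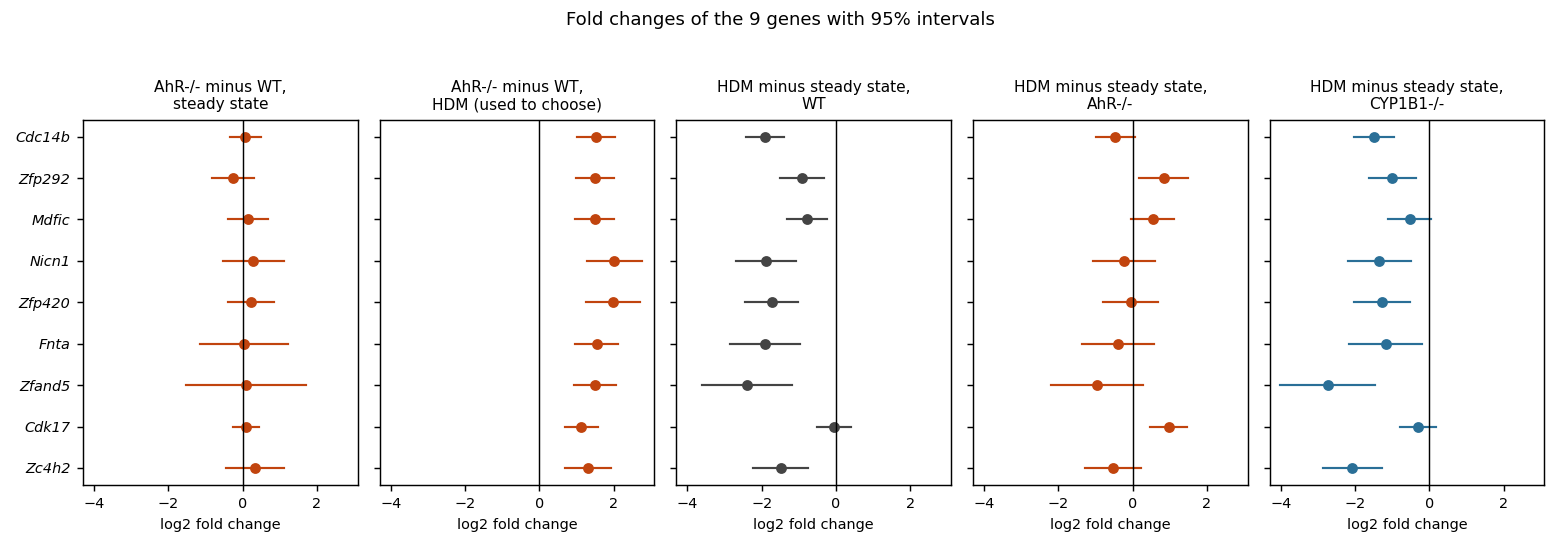
Log2 fold changes (points) with 95% intervals (lines) of the 9 genes in 5 contrasts, from left to right AhR-labelled minus WT at steady state and after HDM, and HDM minus steady state in WT, AhR-labelled and CYP1B1-labelled libraries. The first panel spans 0 for all 9 genes, the second is the contrast that chose them, and in the last 3 panels the WT and CYP1B1-labelled estimates lie below 0 for all 9 genes and the AhR-labelled estimates run from -0.96 to 0.97.

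HDM was compared with steady state in CYP1B1-labelled ECs, whose libraries were not used to choose the genes. There 6 of the 9 genes fell (edgeR's quasi-likelihood test, adjusted p of at most 0.05), as did 17.9% of the 16639 genes tested, and all 9 estimates were below 0. Zfand5 fell by 2.74 on the log2 scale (SE 0.62, adjusted p = 0.0014), Zc4h2 by 2.08 (SE 0.38, adjusted p = 0.00021) and Cdc14b by 1.49 (SE 0.26, adjusted p = 0.00013). Nicn1, Zfp420 and Zfp292 fell by 1.35, 1.27 and 1.00. Fnta (-1.17, SE 0.47, adjusted p = 0.061), Mdfic (-0.53, SE 0.28, adjusted p = 0.156) and Cdk17 (-0.31, SE 0.24, adjusted p = 0.365) did not pass by the same edgeR test. The median of the 9 was -1.27, against -0.021 over all genes. Libraries did not overlap for Cdc14b and Zfand5, 2 of the 9, as for 17.3% of genes. State and run cannot be told apart in this contrast, Y-linked genes summed to 66.6 to 236 CPM at steady state and at most 0.20 CPM after HDM, and Ptprc was at 2.18 to 6.17 CPM against 26.2 to 669 CPM. From steady state to HDM in these libraries, the general epithelial markers summed to 1934 to 2595 and 651 to 986 CPM, the alveolar type 1 markers to 16728 to 33384 and 518 to 4678 CPM, the alveolar type 2 markers to 952 to 3072 and 5843 to 38787 CPM, and the hematopoietic markers to 436 to 738 and 4890 to 7497 CPM. The part of these cell types in the fall of the 6 genes was not tested beyond the hematopoietic score.

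With the hematopoietic marker score as covariate, 0 of the 9 genes passed in CYP1B1-labelled ECs (adjusted p 0.162 to 0.892 by edgeR's quasi-likelihood test), with all 9 estimates below 0 (-2.43 to -0.21), and 233 genes in all were called lower. Leaving out single libraries, Cdc14b and Zc4h2 passed in all 7 fits. Zfp292 was lost without steady-state replicate 2 (-0.49) or HDM replicate 1 (-0.67), Zfand5 without steady-state replicate 2 (-1.04), and Zfp420 without steady-state replicate 3 (-0.89). Nicn1 was lost without steady-state replicate 3 (-0.99) or 4 (-1.13) or HDM replicate 1 (-1.11) or 3 (-1.14), while Fnta passed without steady-state replicate 4 (-1.47).

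The 2 other genotypes share libraries with the choice of the genes, and their values are given side by side without a test. State cannot be told apart from run in either genotype, nor, by Y-linked sums, from sex in WT. From steady state to HDM, alveolar type 1 markers summed to 25325 to 30933 and 739 to 5240 CPM in WT. In AhR-labelled libraries they summed to 26698 to 32340 and 3669 to 22363 CPM. Hematopoietic sums were 741 to 1754 and 4040 to 9168 CPM in WT and 516 to 1185 and 907 to 9036 CPM in AhR-labelled ones. The part of these cell types was not tested. In WT, the change from steady state to HDM was -2.39 (Zfand5) to -0.049 (Cdk17) on the log2 scale, with a median of -1.73, and 8 of the 9 genes had all HDM libraries below all steady-state libraries, as 21.2% of genes had. In AhR-labelled ECs the change was -0.96 (Zfand5) to 0.97 (Cdk17), with a median of -0.24. Zfp292 (0.83) and Cdk17 (0.97) had all HDM libraries above all steady-state libraries, as 12.7% of genes had, and Cdc14b (-0.47) had all of them below, as 23.2% of genes had. The excess of the AhR-labelled over the WT change was 0.95 (Zc4h2) to 1.74 (Zfp292).

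In CYP1B1-labelled against WT HDM libraries, estimates of the 9 genes were -0.49 (Zc4h2) to 0.59 (Nicn1). Against CYP1B1-labelled HDM libraries, all 9 genes were higher in all AhR-labelled ones, as 5.33% of genes were, by 1.09 (Cdk17) to 1.81 (Zc4h2). At the threshold for calls 0 of the 9 were called higher there, as were 0% of all genes. Both contrasts share a group with the choice of the genes.

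Within the steady-state libraries the 9 genes did not vary as 1 group. Cdc14b, Nicn1, Zfp420 and Zc4h2 had pairwise Pearson correlations of log2 CPM of 0.89 to 0.97 over the 10 libraries, and Zfp292, Mdfic, Fnta, Zfand5 and Cdk17 of 0.22 to 0.87. Of the 20 pairs between the 2 sets, 19 were negative (-0.72 to 0.086). These sets were formed after the values were seen and no test was made. Much of the split rested on CYP1B1-labelled replicate 2. Without it the first set was at 0.52 to 0.83, the second at 0.0081 to 0.98, and 9 of the 20 pairs between sets were negative. Fnta and Zfand5 were the closest pair without it (r = 0.98 over 9 libraries), at r = 0.87 and Spearman's rho = 0.84 over all 10, and r = 0.77 without the 2 libraries farthest from the median of Fnta. The points share library preparation, run and depth, and pool 3 genotypes. The SD of log2 CPM over the 10 libraries was 0.89 for Fnta, above 94.8% of genes, and 0.19 for Cdk17, above 6.80%.

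**Figure D4:**
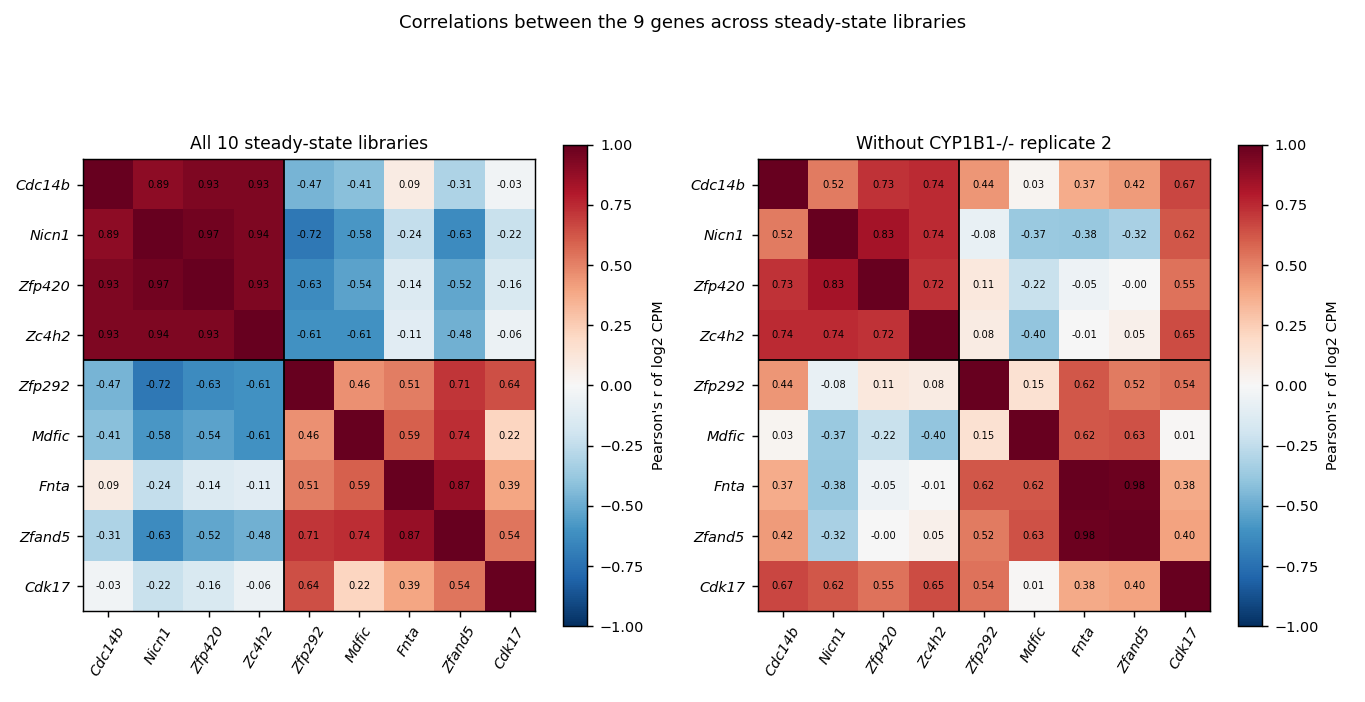
Pearson's r of log2 CPM between the 9 genes over all 10 steady-state libraries (left) and over the 9 without CYP1B1-labelled replicate 2 (right). Colours run from -1 (blue) to 1 (red), and lines part the set of Cdc14b, Nicn1, Zfp420 and Zc4h2 from the other 5 genes; negative pairs between the sets number 19 of 20 on the left and 9 of 20 on the right.

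Genes whose levels were most like the 9 were sought over all 22 libraries, by Pearson correlation with the mean of the 9 standardized log2 CPM values. They were Tmem223 (r = 0.954), Pccb (0.951), 2010111I01Rik (0.938), Nr3c1 (0.936) and Rab2a (0.936). Over the 14 libraries not used to choose the 9 genes, the same correlations were 0.926, 0.939, 0.893, 0.962 and 0.904. Those 14 are among the 22 libraries by which these like genes were picked, so the values are not an independent check. They describe shared levels across libraries that also differ in state, run and cell makeup.

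Partners and relatives of the 9 genes were counted in lists drawn from their known functions, without the 9 genes themselves. No gene of any list passed in the 3 steady-state contrasts. In CYP1B1-labelled ECs, HDM against steady state, 15.5% of all genes rose and 17.9% fell. With the hematopoietic score as covariate, and hematopoietic sums of 436 to 738 CPM at steady state and 4890 to 7497 CPM after HDM, lower calls over all genes went from 2977 to 233; the part of cell makeup in the calls of the lists was not tested. Of the 10 other prenylation genes, partners of Fnta, 0 rose and 6 fell, among them the processing methyltransferase Icmt (-2.68, adjusted p = 1.13e-05) and Fntb, the beta subunit of farnesyltransferase (-1.29, adjusted p = 0.0016), with Zmpste24 (-1.08), Ptar1 (-0.96), Rce1 (-0.80) and Rabggta (-0.76), all by edgeR's quasi-likelihood test. Of 18 genes that add or remove tubulin glutamate, relatives of Nicn1, 0 rose and 5 fell, namely Ttll7 (-2.06), Ttll1 (-1.93), 1110051M20Rik (-1.54), Agbl3 (-1.15) and Tpgs1 (-0.82). Cdk14 (-0.99) and Cdk16 (-1.79) fell among 6 relatives and partners of Cdk17.

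Members of the mitotic exit list around Cdc14b moved in both directions, with 4 of 10 higher and 3 lower in CYP1B1-labelled ECs after HDM. The mitotic genes Cdc20 (5.07), Plk1 (4.85), Cdc25c (3.31) and Cdc25b (1.3) rose and the anaphase-promoting complex genes Anapc2 (-1.23) and Anapc1 (-0.81) and the phosphatase Cdc25a (-1.27) fell. The steady-state means of Cdc20, Plk1 and Cdc25c were only 0.68, 0.50 and 0.45 CPM, in libraries where 3 counts are 0.15 to 0.21 CPM. Zfand4 (1.25) rose and Zfand2a (-1.40) and Zfand2b (-0.79) fell among 6 relatives of Zfand5. Piezo1 (-2.21), a mechanosensitive channel, fell among 5 partners of Mdfic, and Rnf220 (0.92) and Usp7 (0.83) rose among 3 partners of Zc4h2. C2H2 zinc finger genes were listed by name only, as symbols of Zfp followed by digits, without a check of their domains. Of 339 other genes so named, 17 rose and 92 fell (5.01 and 27.1%), with a median of -0.46.

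In the contrast that chose the 9 genes, the same lists were counted as a description. The prenylation list had 1 higher (Ptar1, 1.33) and 1 lower gene (Icmt, -0.70) of 10, and its median was -0.0020. The tubulin list had 2 higher of 15, Ttll7 (1.94) and 1110051M20Rik (1.38), and the kinase list had 1 higher of 5, Cdk16 (0.95). Cdc14a, the closest relative of Cdc14b, was lower (-1.26), as were Cdc20 (-1.80), Plk1 (-2.90), Cdc25c (-2.58) and Anapc2 (-0.76), 5 of 10 on that list. The lists around Zfand5, Mdfic and Zc4h2 had 0 called of 6, 5 and 3, with the lowest p for Zfand1 (0.63) and Zfand2b (0.47), for Piezo2 (1.66) and Piezo1 (-0.92), and for Usp7 (0.20) and Rnf220 (0.18). Of 319 other genes named Zfp with digits, 40 were higher and 10 lower (12.5 and 3.13%), where 9.22% of all genes were higher and 12.9% lower. The medians of these lists and the calls rest on the same 8 libraries as the choice of the genes.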

How the data were processed

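RNA of sorted ECs was sequenced in 22 libraries. The authors demultiplexed the reads, trimmed them with bbduk, mapped them to mm10 (GRCm38) with GSNAP, and assigned them to genes of Ensembl release 99 with featureCounts 2.0.0. What the authors deposited are raw counts, with no normalization. Strand and multi-mapping settings are not given in the sources used here.

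Of the 54373 genes listed, 54147 matched GENCODE M21 by Ensembl identifier and 21793 were protein-coding. With R 4.3.3 and edgeR 4.0.16, low genes were removed by filterByExpr (10 counts, 15 in total), libraries normalized with TMM and tested with glmQLFit (robust) and glmQLFTest, fitting all 3 genotypes of a state together (14161 genes after HDM, 15547 at steady state) and 6 groups over both tables for HDM against steady state (16639 genes). A gene was called at an edgeR p of at most 0.05 after Benjamini-Hochberg adjustment over all genes tested. SE was taken as the size of the log2 fold change over the root of F, and 95% intervals use its degrees of freedom. Log2 CPM has a prior count of 1. On these library sizes 3 counts are 0.107 to 1.36 CPM. Counts differ in depth, and the smallest libraries give the least precise values.

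The 9 genes, and the lists of partners and cell type markers, were chosen with earlier results of these data known. Named beside them are the targeted genes, the sorting genes, list genes that passed in the steady-state or CYP1B1 contrasts (otherwise the 2 of lowest p after HDM), list genes called in the choosing contrast, the 5 genes most like the 9, and genes sharing their exons. Alternatives were DESeq2 1.42.0, voom of limma 3.58.1 with sample weights, edgeR's likelihood ratio test, upper-quartile or RLE normalization, a minimum of 10 counts per library or no filter, no robust estimation, all genes, leaving out dominant predicted genes (at least 1% of a library), the replicate number as a block, a hematopoietic marker score as covariate, the compared groups only, and each library left out. The scripts were tested on simulated data. Protein sequences were not used here. Figures were drawn with matplotlib 3.10.9.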

Additional observations from a re-analysis of the deposited data

Results flagged for a closer look

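Each set of 4 libraries was checked for a library far from the others by Dixon's test, which chance passes in about 1 of 20 sets. Of 40 sets, 2 passed. Zfp420 in WT HDM replicate 1 was at 2.27 log2 CPM, against 1.23 to 1.25 in the other 3 WT libraries. Zc4h2 in WT HDM replicate 4 was at 1.62 log2 CPM, against 2.13 to 2.19. Both libraries were still below all AhR-labelled HDM libraries.

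Between states, Zfp292 differed in opposite directions in AhR-labelled and WT libraries. All AhR-labelled HDM libraries were above those of steady state, as for 12.7% of genes, and all WT HDM libraries below, as for 21.2%. The AhR-labelled margin was narrow, 26.2 CPM in HDM replicate 2 against 25.5 CPM in steady-state replicate 1. The AhR-labelled change exceeded the WT change by 1.74 on the log2 scale. This difference was not tested, since the gene was chosen on its HDM libraries, and state and run cannot be told apart.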

How the results depend on the processing

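The number of the 9 genes called was 0 in all 3 steady-state contrasts under every alternative run. After HDM, AhR-labelled against WT, all 9 were called under each change of test, filter or normalization, except that a minimum of 10 counts in every library left 7 of the 9, all called. All estimates stayed above 0. The count fell to 0 of 9, and to 0 higher genes in all, with the hematopoietic score as covariate and without both AhR-labelled libraries with high Y-linked sums, and ran from 0 to 9 (0 to 1871 genes) with single libraries left out. Against 1305 higher genes, 829 were called with no filter, 2202 by DESeq2 and 2987 by voom. In CYP1B1-labelled ECs, 6 of the 9 genes fell with HDM, 4 to 7 did under the other alternatives and 0 (233 genes, against 2977) with the hematopoietic score. In these cases the cause was not tested.

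With the replicate block, 0 of the 9 genes and 1 gene in all were called higher in AhR-labelled than WT HDM libraries, with estimates of 1.13 to 2.05 (median 1.52) for the 9, 6 of the 9 still fell in CYP1B1-labelled ECs, and steady-state calls were 0 in all 3 contrasts. Replicate numbers do not pair the libraries by any label, and the correlations of same-numbered libraries' deviations from their group means ran from -0.17 to 0.67 between AhR-labelled and WT HDM libraries. The block also turned the estimates of Fnta in AhR-labelled against WT libraries (-0.15), of Zfand5 (-0.34) and Zc4h2 (-0.16) in CYP1B1-labelled against WT libraries, and of Zfand5 in AhR-labelled against CYP1B1-labelled libraries (0.51), all at steady state.

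Steady-state calls over all genes were few and moved with the method. AhR-labelled against WT, 0 genes became 11 by the likelihood ratio test, 13 by DESeq2, 11 by voom, 1 with upper-quartile normalization, 5 with the compared groups only and 0 to 1 with a library left out. CYP1B1-labelled against WT, 2 genes became 5 by DESeq2, 8 by voom, 0 with the compared groups only and 0 to 4 with a library left out. AhR-labelled against CYP1B1-labelled, 1 gene became 9 by the likelihood ratio test, 14 by DESeq2, 10 by voom, 3 with all genes, 0 with the compared groups only and 0 to 7 with a library left out.

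Some estimates of single genes changed sign at steady state, none of them called. By voom these were, against WT in CYP1B1-labelled libraries, Nicn1 (0.23), Zfp420 (0.15) and Zfand5 (-0.59) and, AhR-labelled against CYP1B1-labelled, Zfand5 (1.05) and Zc4h2 (-0.097). With the hematopoietic score they were Cdc14b in AhR-labelled against WT (-0.026) and Mdfic (0.029) and Zc4h2 (-0.28) in CYP1B1-labelled against WT libraries. With single libraries left out, AhR-labelled against WT estimates ran from -0.0015 to 0.12 for Cdc14b, -0.56 to 0.47 for Fnta and -0.33 to 0.53 for Zfand5. CYP1B1-labelled against WT they ran from -0.46 to 0.16 for Mdfic, -0.46 to 0.32 for Nicn1, -0.52 to 0.16 for Zfp420, -1.05 to 1.02 for Zfand5 and -0.26 to 0.45 for Zc4h2. AhR-labelled against CYP1B1-labelled they ran from -0.023 to 0.60 for Mdfic, -0.024 to 0.75 for Nicn1, -0.042 to 0.93 for Fnta, -0.94 to 1.14 for Zfand5 and -0.11 to 0.61 for Zc4h2. The fall of Mdfic in CYP1B1-labelled ECs, not called, ran from -0.74 to 0.00092.

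Depth limits the lowest values, since counts of Zfp420 and Zc4h2 went down to 9 and 8 in the shallowest HDM libraries.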
